A study of Danio rerio with 63 samples.

Results

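The comparison is between the olfactory bulb (OB) and the telencephalon (Tel) of adult wild-type (WT) zebrafish. Its members are the 12 WT pools that have a library of each region, so it takes 24 of the 63 libraries and 12 of the 21 pools in the series. All 15418 genes of the count table were eligible, and 4404 had enough counts to be tested. The choice used the labels for region, genotype and sex and no measured value.

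The study asks what brain aromatase does in fish, using a zebrafish line with a TALEN-induced mutation in cyp19a1b, the gene of the brain form of the enzyme. Each library holds RNA of 1 dissected region from 3 adult fish of 1 sex and genotype, so a pool averages 3 animals. The WT fish were of the AB strain and gave 6 pools of females and 6 of males. The OB and Tel libraries of 4 female and 5 male cyp19a1b mutant pools, and the hypothalamus libraries of the same 12 WT pools, served only to show where the WT difference held. RNA was read from the 3' end by BRB-seq, a bulk method that tags each library with a barcode and each molecule with a unique molecular identifier (UMI), so that a count is a number of molecules.

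The OB is the first brain station of smell. Axons of the olfactory sensory neurons, which sit in the nasal epithelium, end there on mitral cells, the glutamatergic output neurons, and local GABAergic granule and periglomerular interneurons shape that output. In adult zebrafish, new interneurons reach the bulb from the ventral telencephalon, where radial glia that express cyp19a1b line the ventricle. The Tel has a pallium of mostly glutamatergic neurons and a subpallium rich in GABAergic ones. Its sensory input from the nose comes through the bulb.

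Total UMIs per library were 189762 to 1033008 (median 402273) in the 12 OB-labelled libraries and 37825 to 693487 (median 353181) in the 12 Tel libraries, so that 1 molecule was worth 1.11 to 5.63 CPM (counts scaled to a common library total) in OB-labelled and 1.34 to 19.95 CPM in Tel libraries. In all, the OB-labelled libraries held 5470393 UMIs and the Tel libraries 4207983, so raw counts set side by side are not on a common scale. Multidimensional scaling of the 36 WT libraries used only the 4404 genes tested between OB and Tel. The distance of each pair of libraries was taken over the 500 of these genes that differed most between the pair. Genes counted mainly in the hypothalamus could be left out, so the place of the hypothalamus libraries depends in part on that choice. Dimension 1 held 74.2% of the variance in these distances, not of that over all 4404 genes. It placed the OB-labelled libraries at 2.44 to 2.74, the Tel libraries at -1.47 to -0.75 and the hypothalamus libraries at -1.34 to -1.21. Dimension 2 held 5.06% and separated Tel from hypothalamus, and on it Tel male pool B2, the shallowest library, stood at 1.99 while the other 11 Tel libraries stood at 0.24 to 0.44. Tel male pool A1, at -0.75 on dimension 1, was the Tel library nearest to the OB-labelled ones.

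**Figure D1:**
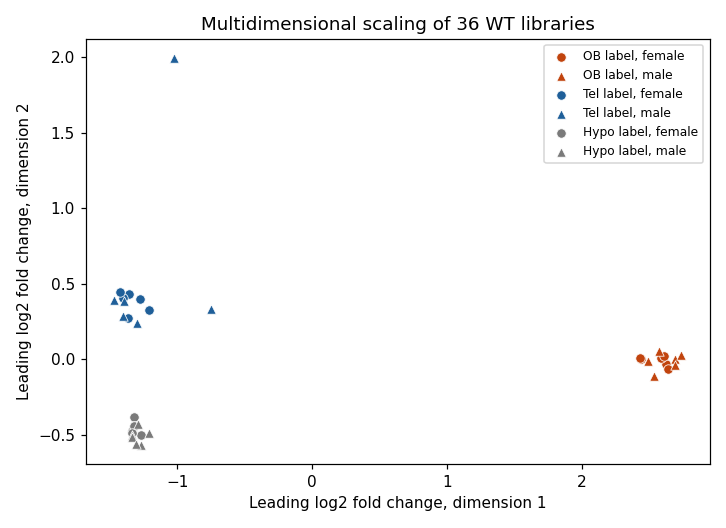
Multidimensional scaling of the 36 WT libraries, with leading log2 fold change on both axes (circles female pools, triangles male pools, colour by region label). Only the 4404 genes tested between OB and Tel were used, and for each pair of libraries the 500 that differed most. The OB-labelled libraries lie at 2.44 to 2.74 on dimension 1, apart from Tel and hypothalamus libraries, which both lie at -0.75 or lower.

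A gene was called where edgeR's quasi-likelihood test, with the pool as a block, gave a Benjamini-Hochberg adjusted p of 0.05 or less and the fitted change was at least 1.5-fold. Of the 4404 genes tested, 2524 (57.3%) were called, 1318 (29.9%) higher and 1206 (27.4%) lower in the OB-labelled libraries. In 800 genes (18.2%) every OB-labelled library lay above every Tel library, and in 589 (13.4%) every one lay below. The median log2 fold change over all genes tested was -0.02. With library totals as the only scaling it was -0.30 and the calls were 1106 higher and 1677 lower, whereas with size factors of relative log expression (RLE) it was 0.11 with 1456 higher and 1035 lower. Differences are given as log2 fold changes, OB minus Tel. Their standard error was worked back from the F statistic of the fit to the 12 pools, not from the spread between pools. Levels are given as the lowest, the median and the highest library of a region, in CPM. Hypothalamus levels were scaled separately, over all 63 libraries, so they compare only roughly with the other 2 regions. A gene that is high in 1 region only could pass the filter through that region and then had to differ, so counts and medians over the tested members of a list describe those members alone. List counts are to be read beside the 29.9% higher and 27.4% lower over all genes tested. The share of counts of a list member is taken on library totals alone, a scaling that leans towards Tel (median -0.30). How many of all genes had the higher share in OB-labelled libraries was not worked out, so those counts have no background beside them. In bulk RNA, fewer cells of a type and less RNA per cell cannot be told apart.

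The label of the region was first set against its markers, and the markers of the bulb were not all there in the libraries labelled OB. eomesa and the enzymes of GABA synthesis were near 0 in them or well under their Tel level. Interneuron factors went both ways, with 3 of 15 tested higher and 7 lower. Transcripts of nasal sensory neurons and of epithelium were high. The libraries are therefore called OB-labelled libraries throughout, and the cause of the mismatch was not tested. eomesa, a T-box factor of mitral cells and of pallial neurons, had 0, 1.58 and 9.56 CPM in OB-labelled libraries against 427, 505 and 682 CPM in Tel libraries. The groups were far apart, with a log2 fold change of -7.45 ± 0.21 (SE, n = 12 pools), and no other tested gene fell further. tbx21, a further T-box factor of mitral cells, had 0 against 6 counts over the 12 libraries of each region, and a count of 0 allows up to 0.548 CPM in the OB-labelled libraries. Its low Tel count leaves no fold to give, so its 0 does not show that a mitral marker was missing. lhx2a, a further mitral marker, went the other way, with 18 against 2 counts in OB-labelled and Tel libraries. Its level was higher in the OB-labelled library of 9 pools and lower in that of 0. tbr1b, the related factor shared by pallium and mitral cells, had 14.5, 33.3 and 70.8 CPM in OB-labelled libraries against 74.9, 131 and 159.6 CPM in Tel libraries, and every OB-labelled library was below every Tel library. Of the 11 mitral cell genes counted, the 9 besides eomesa and tbr1b were too sparse to test and held 238 counts in OB-labelled against 252 in Tel libraries. Summed over the 12 libraries of a region, 5 of the 11 had the higher share of all counts in the OB-labelled libraries.

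gad1b and gad2, the GABA-synthesizing enzymes, mark the granule and periglomerular interneurons of the bulb. gad1b had 2.42, 15.08 and 22.5 CPM in OB-labelled libraries against 257, 314 and 350.4 CPM in Tel libraries, a log2 fold change of -4.44 ± 0.17. gad2 had 24.2, 47.3 and 77.9 CPM in OB-labelled libraries against 182, 338 and 519 CPM in Tel libraries, a log2 fold change of -2.68 ± 0.13. Neither gene's libraries overlapped between the regions. Tyrosine hydroxylase (th), which makes the dopamine of periglomerular cells, had 6 against 13 counts in all and was not tested. Its level was higher in the OB-labelled library of 5 pools and lower in that of 5 pools (exact sign-flip permutation test, two-sided p = 0.152, n = 12 pools).

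Interneuron factors of the bulb did not all follow the GABA enzymes. sp8a, a zinc-finger factor of interneurons that are bound for the bulb, had 41.0, 64.1 and 105 CPM in OB-labelled libraries against 0, 16.01 and 34.2 CPM in Tel libraries and was higher by 2.15 ± 0.24. pax6a, which is used by periglomerular cells and also by olfactory placode derivatives, had 37.3, 87.1 and 183 CPM in OB-labelled libraries against 3.45, 20.0 and 43.5 CPM in Tel libraries and was higher by 2.45 ± 0.20. Both were higher in 12 of 12 pools. The interneuron factor dlx5a differed less, with 48.6, 109.9 and 149 CPM in OB-labelled libraries against 39.9, 76.1 and 130.4 CPM in Tel libraries. Its difference of 0.41 ± 0.17, higher in 10 of 12 pools, passed the adjusted p but not the fold threshold and was not called. dlx2a, its partner in subpallial progenitors, had 14 against 225 counts in OB-labelled and Tel libraries.

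In turn, transcripts of olfactory sensory neurons and of epithelium were plentiful. ompa, olfactory marker protein of mature olfactory sensory neurons, had 105, 149.8 and 408 CPM in OB-labelled libraries against 6.21, 12.5 and 28.5 CPM in Tel libraries, with every OB-labelled library above every Tel library (3.76 ± 0.19). Its level in OB-labelled libraries went with the letter of the pool, at 319 to 408 CPM in the 4 pools of letter B, 129 to 171 CPM in those of letter A and 105 to 153 CPM in those of letter C. Whether the letter marks a batch is not stated in the labels. Within each letter the OB-labelled libraries of ompa stayed above the Tel libraries. With 61 Tel counts in all, ompa passed the filter through the OB-labelled libraries. epcam, the cell adhesion molecule of epithelia, had 930.3, 2044 and 2688 CPM in OB-labelled libraries against 0, 20.6 and 249 CPM in Tel libraries (6.20 ± 0.34). krt5, a keratin of basal epithelial cells, had 1517, 2266 and 4147 CPM in OB-labelled libraries against 6.85, 23.8 and 7240.4 CPM in Tel libraries, where the highest Tel value belonged to male pool A1 alone.

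**Figure D2:**
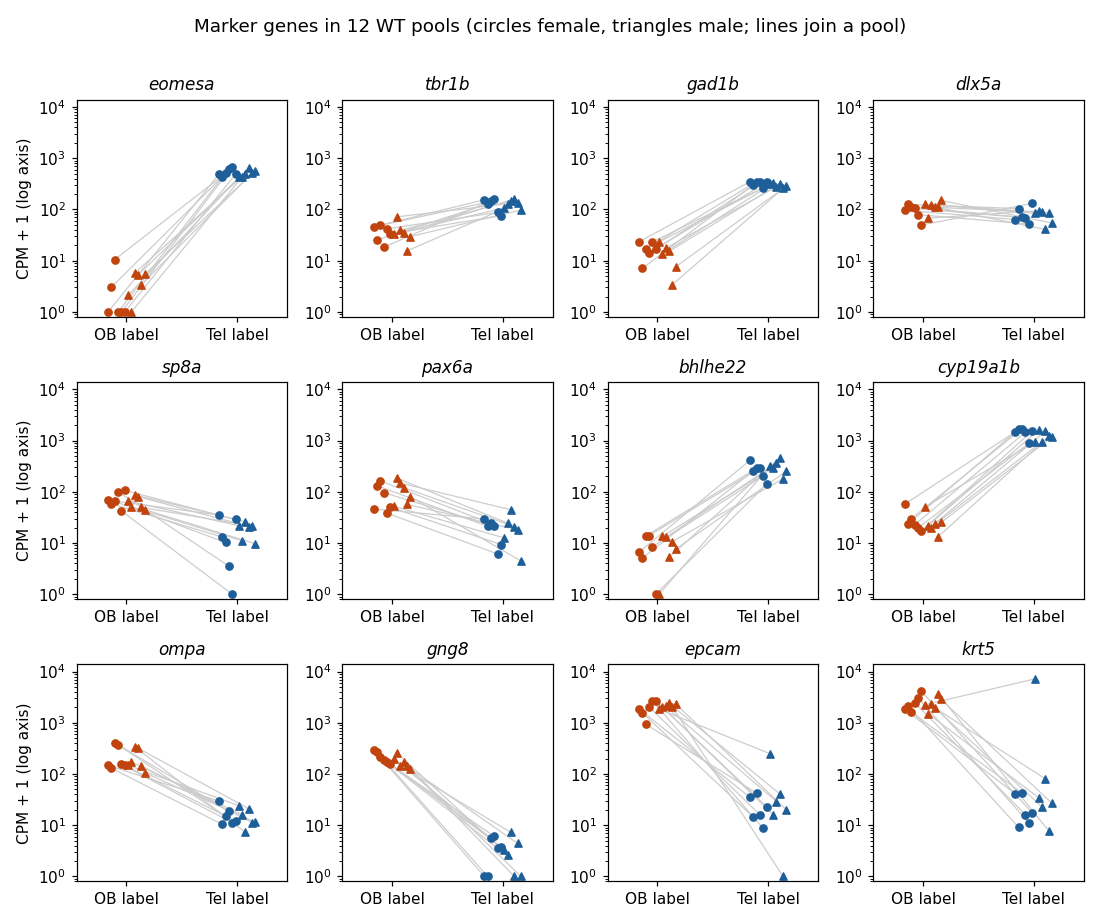
Levels of 12 marker genes in the 12 WT pools (CPM + 1 on a log axis; OB-labelled libraries left, Tel libraries right, lines join the libraries of a pool, circles female and triangles male). eomesa, tbr1b, gad1b, bhlhe22 and cyp19a1b were lower and sp8a, ompa, gng8 and epcam higher in every OB-labelled library than in any Tel library, and krt5 overlapped through Tel male pool A1 at 7240 CPM.

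Tel male pool A1 stood apart from the other 11 Tel libraries in epithelial and fibroblast transcripts. The 12 epithelial markers summed to 10586 CPM there against 298 to 702 CPM (median 404) in the others, and the 10 fibroblast markers to 6885 CPM against 485 to 1674 CPM. krt5 alone had 3136 counts there against at most 20 in any other Tel library. Its nasal sensory transcripts were within the range of the others. Without that pool 2517 genes were called, and named genes and list medians that moved by over 1.5-fold without it are given both ways.

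The 12 genes with the largest rise included several of epithelial barriers. cldnh and cldnb encode claudins, the proteins of tight junctions. cldnh had 1048, 1434 and 1529 CPM in OB-labelled libraries against 2.55, 9.70 and 39.9 CPM in Tel libraries, a log2 fold change of 7.15 ± 0.17. cldnb had 1596, 3099 and 5358 CPM in OB-labelled libraries against 1.34, 12.7 and 1083 CPM in Tel libraries, and its log2 fold change of 7.07 ± 0.52 was 7.88 without male pool A1. cdh1, E-cadherin, joins epithelial cells to each other. It had 1581, 2486 and 4417 CPM in OB-labelled libraries against 0, 23.1 and 217 CPM in Tel libraries, a log2 fold change of 6.72 ± 0.38 and of 7.34 without male pool A1. atp1a1a.3 encodes a catalytic subunit of the sodium-potassium pump and was higher by 6.69 ± 0.23.

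The parvalbumin gene pvalb5, which encodes a calcium buffer, had 11035, 16805 and 20490.5 CPM in OB-labelled libraries against 71.9, 159.9 and 339 CPM in Tel libraries. The lowest OB-labelled library thus lay far above the highest Tel library, and the log2 fold change was 6.72 ± 0.18. angptl7 and myoc encode secreted proteins of the angiopoietin-like and myocilin kinds. angptl7 had 562, 734 and 1117 CPM in OB-labelled libraries against 1.34, 5.96 and 20.0 CPM in Tel libraries (6.94 ± 0.19), and myoc had 707, 1024 and 1265 CPM in OB-labelled libraries against 0, 8.14 and 39.9 CPM in Tel libraries (6.83 ± 0.22). capn2l and capn8, calcium-activated proteases of the calpain family, were barely counted in Tel, with 763 against 6 counts of capn2l and 751 against 6 of capn8 in OB-labelled and Tel libraries. Their log2 fold changes were 6.62 ± 0.28 and 6.56 ± 0.31, and that of capn8 was 7.53 without male pool A1, which held most of its Tel counts. The remaining genes were selenow2b, of the selenoprotein W family (6.66 ± 0.25), and si:ch211-243g18.2 and zgc:165423, which the files name by clone only (7.50 ± 0.27 and 6.80 ± 0.21). si:ch211-243g18.2 had 1082 against 4 counts in OB-labelled and Tel libraries, so the size of its fold rests on few molecules.

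The 12 genes with the largest fall were mostly genes of neurons. After eomesa came bhlhe23, a basic helix-loop-helix factor of neurons, with 0, 0 and 6.58 CPM in OB-labelled libraries against 179.6, 257 and 309 CPM in Tel libraries (-7.17 ± 0.26). neurod6a, a factor of the same class that marks differentiated excitatory neurons, had 0, 0.556 and 8.33 CPM in OB-labelled libraries against 119.7, 204 and 399 CPM in Tel libraries (-6.69 ± 0.26). The OB-labelled medians of both were under 1 CPM, which is below the worth of a single molecule in any of these libraries. prdm8b, a zinc-finger factor of the developing forebrain, was lower at -6.50 ± 0.25. nrn1a encodes neuritin, a membrane-anchored protein of growing neurites, and was lower at -6.81 ± 0.24. sst1.1, a somatostatin of inhibitory interneurons, had 6.67, 10.8 and 19.7 CPM in OB-labelled libraries against 279.7, 860.3 and 1607 CPM in Tel libraries (-6.02 ± 0.19). camk2a, the calcium/calmodulin kinase of the postsynaptic side, had 0, 0 and 5.63 CPM in OB-labelled libraries against 55.5, 114 and 272 CPM in Tel libraries (-5.89 ± 0.29). cacng8a, an auxiliary subunit of AMPA receptors, had 0, 4.50 and 11.3 CPM in OB-labelled libraries against 199.5, 296 and 414 CPM in Tel libraries (-5.82 ± 0.22). syt5b (a synaptotagmin), cygb2 (a cytoglobin), fam43b and kctd4 fell by 6.27, 6.05, 6.36 and 5.79 on the log2 scale. Of these, syt5b had 6 against 598 counts and cygb2 4 against 341 in OB-labelled and Tel libraries. The rule that chose these 24 genes for the size of their change took only called genes with the same direction in 12 of 12 pools, so neither their calls nor that agreement is further evidence.

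**Figure D3:**
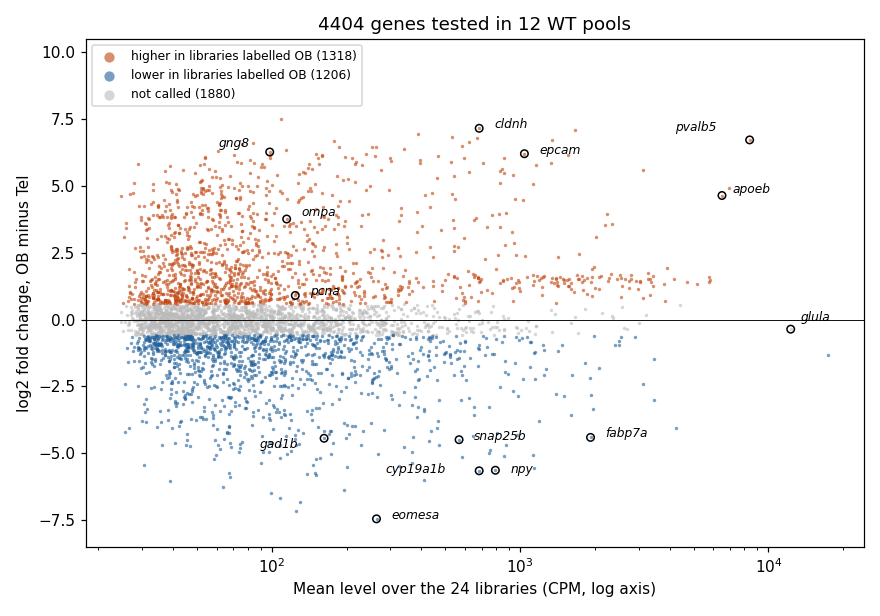
Mean level over the 24 libraries (CPM, log axis) against log2 fold change, OB minus Tel, for the 4404 genes tested, coloured by call. 1318 genes were higher and 1206 lower in OB-labelled libraries, and named points include pvalb5 at 6.72 and eomesa at -7.45.

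GABA transmission genes were lower. All 5 tested genes of the 7 in the count data were lower, with a median log2 fold change of -4.09, beside 27.4% lower of all genes tested. Of the 5, gad1b and slc32a1 passed the filter through the Tel libraries, where they are high. The summed level of the 7 genes was 143, 201 and 259 CPM in OB-labelled libraries against 1113, 1383 and 1778 CPM in Tel libraries. slc32a1, which loads GABA into vesicles, had 0, 13.7 and 29.2 CPM in OB-labelled libraries against 180.4, 237 and 339 CPM in Tel libraries (-4.15 ± 0.22). abat, which degrades GABA, fell least, by 1.27 on the log2 scale.

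Glutamatergic identity could be read only from transcription factors, because none of the 6 glutamate transporters and enzymes counted was tested, with 74 counts in OB-labelled and 169 in Tel libraries. Of the 27 pallial factors counted, 8 were tested, 7 were lower and 1 was higher, beside 27.4% and 29.9% of all genes tested. The median of the 8 was -3.95. The 19 not tested held 514 counts in OB-labelled against 908 in Tel libraries, and 7 of the 27 had the higher share in the OB-labelled ones. The 27 summed to 231, 300 and 360 CPM in OB-labelled libraries against 1224, 1577 and 1896 CPM in Tel libraries. bhlhe22, a repressor in excitatory neurons, had 0, 7.02 and 12.98 CPM in OB-labelled libraries against 139, 286 and 459 CPM in Tel libraries (-5.43 ± 0.23). neurod1 (-3.38 ± 0.15), which drives the last step of neuronal differentiation, and fezf2 (-4.52 ± 0.23), a forebrain zinc-finger factor, were lower in every pool. foxg1a, which marks telencephalon and olfactory placode alike, differed less, at -1.55 ± 0.14, and its OB-labelled median of 55.5 CPM stood between the Tel median of 160.1 CPM and the hypothalamus median of 5.90 CPM. The 1 pallial factor that was higher was cux1b (0.87 ± 0.21), a homeobox gene that is expressed outside the nervous system too.

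Of the 33 interneuron factors of the olfactory system in the table, 15 were tested, 3 were higher and 7 lower, with a median of -0.58. Over all genes tested, 29.9% were higher and 27.4% lower. sp9, the relative of sp8a in subpallial precursors, had 0, 0 and 12.2 CPM in OB-labelled libraries against 58.2, 67.1 and 139.7 CPM in Tel libraries (-4.60 ± 0.36, and -5.94 without male pool A1), opposite in direction to sp8a. zic1 (-2.91 ± 0.19) and nr2f2 (-2.59 ± 0.17), factors of ventral and caudal forebrain, were lower too. six3a and six3b, homeobox factors of the anterior neural plate and of the placodes, were not called, at 0.38 ± 0.13 and -0.46 ± 0.19. Both passed the adjusted p but not the fold threshold.

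The 13 neuropeptide genes tested of 40 were all lower, beside 27.4% of all genes tested. Their median was -3.64 (-4.27 without male pool A1), and 5 of the 40 had the higher share of counts in the OB-labelled libraries. The list had a summed level over the 40 of 1267, 1582 and 2431 CPM in OB-labelled libraries against 5547, 8372 and 12735 CPM in Tel libraries. npy, neuropeptide Y, had 11.3, 30.5 and 50.0 CPM in OB-labelled libraries against 978, 1486 and 2590.1 CPM in Tel libraries (-5.64 ± 0.18). adcyap1b, the precursor of PACAP, had 392, 671 and 1399 CPM in OB-labelled libraries against 1876, 3185 and 3965 CPM in Tel libraries (-2.17 ± 0.17), so that transcripts remained in every OB-labelled library. penka, which encodes proenkephalin, and tac1, the precursor of substance P, were lower at -3.64 ± 0.22 and -3.66 ± 0.31, the second at -4.40 without male pool A1. chga, chromogranin A of dense-core vesicles, fell least, by 0.85 on the log2 scale. gnrh3, the hormone gene of terminal nerve neurons that lie along the olfactory nerve and bulb, was too sparse for the fit, with 21 against 518 counts in OB-labelled and Tel libraries. It was lower in the OB-labelled library of 11 pools and higher in that of 1 (exact sign-flip permutation test, two-sided p = 0.00146, n = 12 pools).

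Calcium-binding proteins split. Of the 24 counted, 11 were tested, 4 were higher and 6 lower, and these 10 did not overlap between the regions. Over all genes tested, 29.9% were higher and 27.4% lower, and 18.2% and 13.4% lay above and below without overlap. Besides pvalb5, the parvalbumin pvalb8 (6.12 ± 0.19), calb2a and the S100 protein s100a10b (3.48 ± 0.24) were higher. calb2a, a calretinin of many neurons including sensory ones, had 1146, 1818 and 2699.9 CPM in OB-labelled libraries against 27.4, 40.1 and 87.6 CPM in Tel libraries (5.42 ± 0.14). nrgna, neurogranin of postsynaptic spines, went the other way with 23.7, 42.4 and 85.6 CPM in OB-labelled libraries against 1157, 2323 and 2814 CPM in Tel libraries (-5.57 ± 0.15).

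Synaptic genes were low in the OB-labelled libraries without being absent. Of 24 genes of vesicles and SNARE proteins 13 were tested, 11 were lower and 0 higher, beside 27.4% and 29.9% of all genes tested. The median of the 13 was -3.27. The summed level of the 24 was 1260.2, 1494 and 1850.2 CPM in OB-labelled libraries against 8361, 10458 and 11855 CPM in Tel libraries. snap25a, a SNARE protein of the nerve terminal, had 249, 363 and 446 CPM in OB-labelled libraries against 2473, 3378 and 5151 CPM in Tel libraries (-3.33 ± 0.11). snap25b fell further, by 4.49 on the log2 scale. The calcium sensor syt1a (-2.11 ± 0.12) and the vesicle SNARE vamp2 (-2.24 ± 0.14) were lower by less. The complexin cplx2l was not called, with 205, 294 and 344 CPM in OB-labelled libraries against 297, 348 and 427 CPM in Tel libraries.

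Receptors and channels were mostly too sparse to test. Of 26 glutamate receptor subunits 2 were tested, and both passed the filter through the Tel libraries, where they are high. gria2b of AMPA receptors was at -5.20 ± 0.30 and grin1b of NMDA receptors at -4.61 ± 0.20. The 24 others held 297 counts in OB-labelled against 1528 in Tel libraries. The 26 summed to 43.3, 64.3 and 105 CPM in OB-labelled libraries against 404, 617 and 952 CPM in Tel libraries, which did not overlap. Of 17 GABA and glycine receptor genes 3 were tested and lower, among them the GABA-A subunit gabrb2a (-4.26 ± 0.21) and the glycine receptor subunit glrbb (-3.47 ± 0.18). The 3 sodium and calcium channel genes tested of 38 were lower, scn2b by 3.76 on the log2 scale, and 8 of the 38 had the higher share of counts in the OB-labelled libraries. Potassium channel genes went both ways, with 3 tested of 62. kcnip1b, a channel-interacting protein, was lower (-4.95 ± 0.20), and the inward rectifier kcnj2a was higher (2.67 ± 0.18).

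Among 66 axon guidance genes in the table, 10 were tested, 8 were lower and 1 was higher, beside 27.4% and 29.9% of all genes. The median of the 10 tested was -1.21. The 1 that was higher, unc50, shares only a name with the netrin receptors and is a membrane protein of the secretory pathway. The 56 not tested held 1677 counts in OB-labelled against 1976 in Tel libraries. Of the 66, 20 had the higher share of counts in the OB-labelled libraries. efna1b, a membrane-bound ephrin ligand, had 3.19, 16.9 and 24.2 CPM in OB-labelled libraries against 143, 339 and 552 CPM in Tel libraries (-4.28 ± 0.18), and its hypothalamus libraries held 7.12, 22.02 and 42.8 CPM. sema5a, a semaphorin, was lower at -3.65 ± 0.22. robo2, the slit receptor that guides olfactory sensory axons in zebrafish, fell just short of the fold threshold, at -0.57 ± 0.14, and leaving out female pool A1 or B1 or male pool A2, C1 or C2 gave a call at -0.58 to -0.67. Of 75 protocadherin and cadherin genes 10 were tested, with cdh1 and pcdh20 (2.61 ± 0.17) higher and 7 lower, among them pcdh19 (-2.86 ± 0.13), an adhesion protein of neurons. The 65 not tested held 956 counts in OB-labelled against 2063 in Tel libraries, and 9 of the 75 had the higher share in the OB-labelled ones.

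cyp19a1b, the aromatase of radial glia and the gene mutated in the study's line, was among the genes most depleted. It had 12.1, 22.04 and 56.3 CPM in OB-labelled libraries against 876, 1462 and 1706 CPM in Tel libraries, and the OB-labelled libraries of female pool A1 (56.3 CPM) and male pool A1 (48.9 CPM) were the highest of their sex. The log2 fold change was -5.66 ± 0.18 (adjusted p = 2.00e-20, edgeR with Benjamini-Hochberg adjustment), and the exact sign-flip permutation test gave the smallest p that 12 pools allow (two-sided p = 0.000488). In the hypothalamus libraries it had 487, 840 and 1495 CPM.

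Radial glia genes were lower more often than higher. Of 29 counted, cyp19a1b included, 15 were tested, 10 were lower and 4 higher, with a median of -1.82. Over all genes tested, 27.4% were lower and 29.9% higher. fabp7a, the fatty acid binding protein of radial glia, had 99.6, 169 and 208 CPM in OB-labelled libraries against 2355, 3600.3 and 5232 CPM in Tel libraries (-4.41 ± 0.14). slc1a2b, a glial glutamate transporter, had 16.9, 29.4 and 54.2 CPM in OB-labelled libraries against 836, 1151 and 1456 CPM in Tel libraries (-5.15 ± 0.13). The gap junction gene cx43 (-4.88 ± 0.14), the growth factor mdkb (-5.09 ± 0.17), the Notch target her4.1 (-2.17 ± 0.17) and the intermediate filament vim (-2.43 ± 0.16) did not overlap between the regions either. The 4 that were higher included the glutamine synthetase glulb (2.85 ± 0.14) and id1 (1.24 ± 0.14), an inhibitor of differentiation that works outside glia too.

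glula, the other glutamine synthetase and a marker of radial glia, was not called and spread widely over the OB-labelled libraries. Its OB-labelled libraries held 3090.4, 11918 and 22758 CPM against 8447, 12255 and 18712 CPM in Tel libraries, with a log2 fold change of -0.36 ± 0.21. By letter of the pool, the OB-labelled levels were 3090.4 to 9439.5 CPM in the 4 pools of letter B, 7859.9 to 15630.4 CPM in those of letter A and 14396 to 22758 CPM in those of letter C. The Tel levels of the letters B, A and C overlapped, at 10720.3 to 17548 CPM, 8447 to 13136 CPM and 11022 to 18712 CPM. Among genes with at least 10 counts in every library its difference was 0.01, and no direction is given.

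Genes of newborn neurons went down more often than up. Of 29 counted 23 were tested, 15 were lower and 5 higher, beside 27.4% and 29.9% of all genes tested. The list median was -1.64. gap43, the growth cone protein, had 19.7, 34.7 and 51.9 CPM in OB-labelled libraries against 639, 913 and 1139 CPM in Tel libraries (-4.69 ± 0.13). The tubulins tubb2b (-2.69 ± 0.13) and tuba1c (-2.39 ± 0.10) and the stathmin stmn1b (-1.64 ± 0.10) had smaller changes. The 5 that were higher included insm1a, a zinc-finger factor of new sensory and endocrine cells, with 102, 148 and 227 CPM in OB-labelled libraries against 6.21, 14.5 and 20.1 CPM in Tel libraries (3.44 ± 0.17). nhlh2, a helix-loop-helix factor of newborn neurons, was higher too (2.48 ± 0.25).

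Proliferation genes were higher. pcna, the DNA polymerase clamp used to mark dividing cells in the fish brain, had 134, 159 and 231 CPM in OB-labelled libraries against 45.6, 85.2 and 119.7 CPM in Tel libraries (0.90 ± 0.13), and it was higher in 12 of 12 pools. Of 21 counted 8 were tested, 5 were higher and 0 lower, beside 29.9% and 27.4% of all genes tested. The median of the 8 was 0.92, beside -0.02 over all genes. The summed level of the 21 was 3046, 3603 and 4239.8 CPM in OB-labelled libraries against 892, 1092 and 1343 CPM in Tel libraries. hmgb2a, a chromatin protein of cycling cells, rose most, with 1250.2, 1448 and 1723 CPM in OB-labelled libraries against 59.0, 86.4 and 150.1 CPM in Tel libraries (3.91 ± 0.14), whereas hmgb2b rose by 0.94 ± 0.11.

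Markers of olfactory sensory neurons were plentiful. Of 14 counted 7 were tested and higher, with a median of 5.09, beside 29.9% higher of all genes tested. ompa, gng8, stoml3b and cnga2b held only 61, 10, 11 and 24 Tel counts. They passed the filter through the OB-labelled libraries, which fixed their direction. The other 7 held 616 counts in OB-labelled against 56 in Tel libraries, and 12 of the 14 had the higher share of counts in the OB-labelled ones. The sum over the 14 was 3039, 4293 and 5373 CPM in OB-labelled libraries against 387, 443 and 606 CPM in Tel libraries, and 328, 426 and 517 CPM in hypothalamus libraries. s100z, an S100 protein of nasal sensory neurons in zebrafish, had 879, 1588 and 2641 CPM in OB-labelled libraries against 23.98, 42.3 and 119.7 CPM in Tel libraries (5.09 ± 0.17). gng8, a G protein subunit of olfactory neurons, had 125, 181 and 298 CPM in OB-labelled libraries against 0, 2.43 and 6.21 CPM in Tel libraries (6.27 ± 0.25). cnga2b, the channel that opens on odorant signalling, had 179, 251 and 434 CPM in OB-labelled libraries against 0, 5.02 and 11.4 CPM in Tel libraries (5.53 ± 0.21). stoml3b, the relative of a stomatin-like protein of olfactory cilia in mice, was higher by 6.16 ± 0.26, and by 6.76 without male pool A1. gng13b, which also serves retinal and brain neurons, rose least at 1.88 ± 0.11 and kept 259, 322 and 475 CPM in Tel libraries.

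Chemosensory receptors are each chosen by few neurons, so single receptor genes were sparse, and 2 of 172 passed the filter, through the OB-labelled libraries, so that the filter fixed their direction. or108-3, an odorant receptor, had 50.0, 114 and 186 CPM in OB-labelled libraries against 0, 2.06 and 9.22 CPM in Tel libraries (5.32 ± 0.26), and or115-13 had 64.9, 86.1 and 128 CPM in OB-labelled libraries against 0, 4.60 and 13.8 CPM in Tel libraries (4.24 ± 0.26). Over all 172, the OB-labelled libraries held 7340 counts against 912 in Tel libraries, and 153 receptors had the higher share of all counts in the OB-labelled libraries, taken over the 12. A single OB-labelled library held 96 to 144 different receptors against 13 to 77 in a Tel library. Such numbers depend on depth, and the shallowest Tel library held 37825 UMIs against 189762 in the shallowest OB-labelled one. The summed level was 1163, 1502 and 1791 CPM in OB-labelled libraries against 123.3, 205 and 279 CPM in Tel libraries, without overlap, and 169, 219 and 396 CPM in hypothalamus libraries. The odorant receptors proper (117 genes) summed to 863, 1202 and 1357 CPM in OB-labelled libraries against 95.9, 135 and 162 CPM in Tel libraries. The 20 receptors of the olfc and v2r kind summed to 114, 173 and 230.2 CPM in OB-labelled libraries against 17.1, 41.6 and 79.8 CPM in Tel libraries. The 33 trace amine receptors (taar) summed to 109, 137 and 197 CPM in OB-labelled libraries against 10.3, 21.98 and 59.9 CPM in Tel libraries. Receptor genes come in near-identical copies and reads that mapped to more than 1 place were dropped, so the value of any single receptor is uncertain.

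Over all genes tested, 29.9% were higher and 18.2% lay above without overlap. All 12 epithelial markers were tested and higher, with a median of 5.59 (6.05 without male pool A1), and 9 of them did not overlap. Their sum was 12584, 14656 and 21778 CPM in OB-labelled libraries against 298, 410.5 and 10586 CPM in Tel libraries, where the highest Tel value is male pool A1, and 417, 494 and 621 CPM in hypothalamus libraries. krt4, a keratin of surface epithelium, had 1443, 1929 and 3757 CPM in OB-labelled libraries against 17.1, 27.3 and 877 CPM in Tel libraries, a log2 fold change of 5.77 ± 0.38 and of 6.31 without that pool. krt18b, a keratin of simple epithelia, had 1185, 1569 and 2415 CPM in OB-labelled libraries against 18.6, 32.2 and 52.7 CPM in Tel libraries, a log2 fold change of 5.64 ± 0.15 and of 5.71 without that pool. krt5 was higher by 6.17 ± 0.58 with male pool A1 and by 6.82 without it, and epcam by 6.78 without it. foxj1a, the master regulator of motile cilia, had 231, 421 and 636 CPM in OB-labelled libraries against 0, 7.93 and 11.4 CPM in Tel libraries (5.81 ± 0.17). What part the nasal and epithelial transcripts play in the other differences was not tested.

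**Figure D4:**
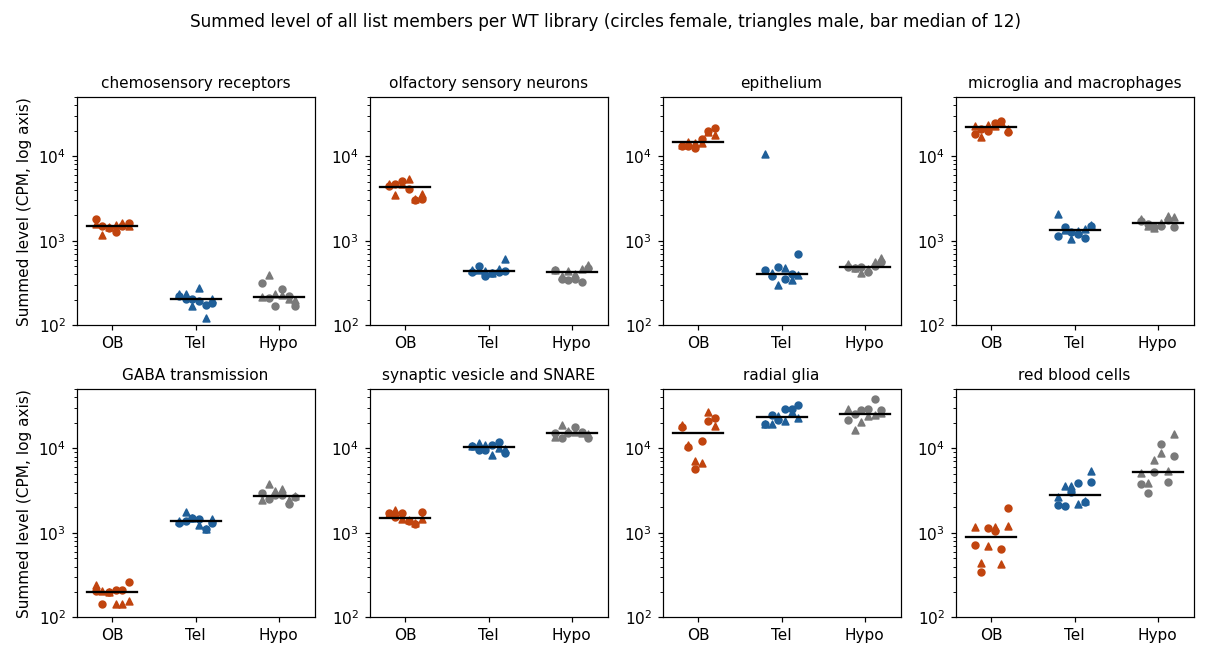
Summed level of all members of 8 gene lists in each of the 36 WT libraries (CPM, log axis; OB-labelled, Tel and hypothalamus libraries from left to right, bar at the median of 12). Chemosensory receptors, olfactory sensory neuron, epithelial and macrophage markers were high in OB-labelled libraries, GABA and synaptic genes low, and the single Tel point at 10586 CPM in the epithelial panel is male pool A1. Hypothalamus libraries were scaled separately.

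Macrophage and microglia markers were higher too. Of 17 counted 8 were tested, 7 were higher and 1 lower, beside 29.9% and 27.4% of all genes tested. The median of the 8 was 4.03. The 17 summed to 17089.8, 21949.5 and 26221 CPM in OB-labelled libraries against 1044, 1326 and 2096 CPM in Tel libraries. mpeg1.1, the macrophage gene most used in zebrafish, had 52.2, 85.6 and 112 CPM in OB-labelled libraries against 0, 5.36 and 16.1 CPM in Tel libraries (3.37 ± 0.25). apoeb, an apolipoprotein of macrophages and of other cells, had 9409, 12459 and 15763 CPM in OB-labelled libraries against 286, 474 and 956 CPM in Tel libraries (4.64 ± 0.15) and carried most of the sum. grn2, a granulin, was higher by 5.86 ± 0.21, and the invariant chain genes cd74a and cd74b by 3.57 ± 0.12 and 4.50 ± 0.15. The 1 that was lower was apoc1, a further apolipoprotein, at -2.07 ± 0.21. The defining receptor csf1ra was rare, with 17 against 8 counts in OB-labelled and Tel libraries.

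Most connective tissue genes that were tested were higher as well. Of 10 fibroblast and meninges genes 7 were tested, 5 were higher and 0 lower, beside 29.9% and 27.4% of all genes tested. The median of the 7 was 3.34, and 6 of the 10 had the higher share of counts in the OB-labelled libraries. col1a2, a chain of type I collagen, had 1198, 1608 and 3434 CPM in OB-labelled libraries against 20.0, 47.5 and 1136 CPM in Tel libraries (4.46 ± 0.37), and the highest Tel library was again male pool A1. The proteoglycan gene dcn did not turn on that pool (3.34 ± 0.24 with it and 3.22 without it). With library totals as the only scaling 4 of these 7 were higher and 2 lower.

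Vessels gave little to compare. The endothelial genes kdrl and cdh5 had 8 against 12 and 18 against 23 counts in OB-labelled and Tel libraries, and the 1 gene tested of 15 was rgs5a of mural cells, which was higher (3.74 ± 0.21). The 4 red blood cell genes tested of 8 were lower, hbba1, a haemoglobin chain, at -1.86 ± 0.16, with 169, 577 and 1066 CPM in OB-labelled libraries against 1052, 1873 and 2867 CPM in Tel libraries. None of the 4 separated the regions fully. Myelin genes were rare in both regions, and mpz and plp1b, which encode myelin membrane proteins, were lower at -3.19 ± 0.20 and -2.22 ± 0.19, while mbpb was not called, at 0.14 ± 0.17. Skeletal muscle had 1 gene tested of 14, which was not called, and 6 of the 14 had the higher share of counts in the OB-labelled libraries. The muscle marker ckma was not tested, with 238 against 18 counts in OB-labelled and Tel libraries, and was higher in 12 of 12 pools. Hypothalamic peptide genes were rare in both, with 1 against 0 counts of hcrt, 2 against 2 of agrp and 50 against 100 of oxt in OB-labelled and Tel libraries.

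Ribosomal protein genes rose together. Of 90 genes matched by name 85 were tested and 82 were higher, with a median of 1.5, and 69 of them did not overlap between the regions. Over all genes tested, 29.9% were higher and 18.2% lay above without overlap. The match by name also took in S6 kinases, and without these 81 of 82 were higher, with changes of 0.06 to 2.49. rpl11 of the large subunit had 6738, 8762 and 10287 CPM in OB-labelled libraries against 1956, 2997 and 3512 CPM in Tel libraries (1.59 ± 0.11), and rps2 of the small subunit had 1773, 2714 and 4763 CPM in OB-labelled libraries against 279, 571 and 707 CPM in Tel libraries (2.45 ± 0.13). The sum of the list was 165595, 215236 and 290223 CPM in OB-labelled libraries against 59545, 77438 and 105843 CPM in Tel libraries. The median stayed above 0 under TMM, RLE and library totals.

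Oxidative phosphorylation genes moved little, at a median of -0.42. Of 88 tested, 23 were lower and 0 higher, beside 27.4% and 29.9% of all genes. Of the 96 counted, 5 had the higher share of counts in the OB-labelled libraries. The number called hung on the scaling, with 13 lower and 1 higher under RLE and 53 lower under library totals. A few were far from the rest and lower under each scaling. ndufa4, a subunit of the respiratory chain, had 6.12, 17.1 and 33.3 CPM in OB-labelled libraries against 479, 683 and 950.5 CPM in Tel libraries (-5.36 ± 0.18). cox8b, of cytochrome c oxidase, and sdhda, of succinate dehydrogenase, were lower at -3.53 ± 0.17 and -4.01 ± 0.24.

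**Figure D5:**
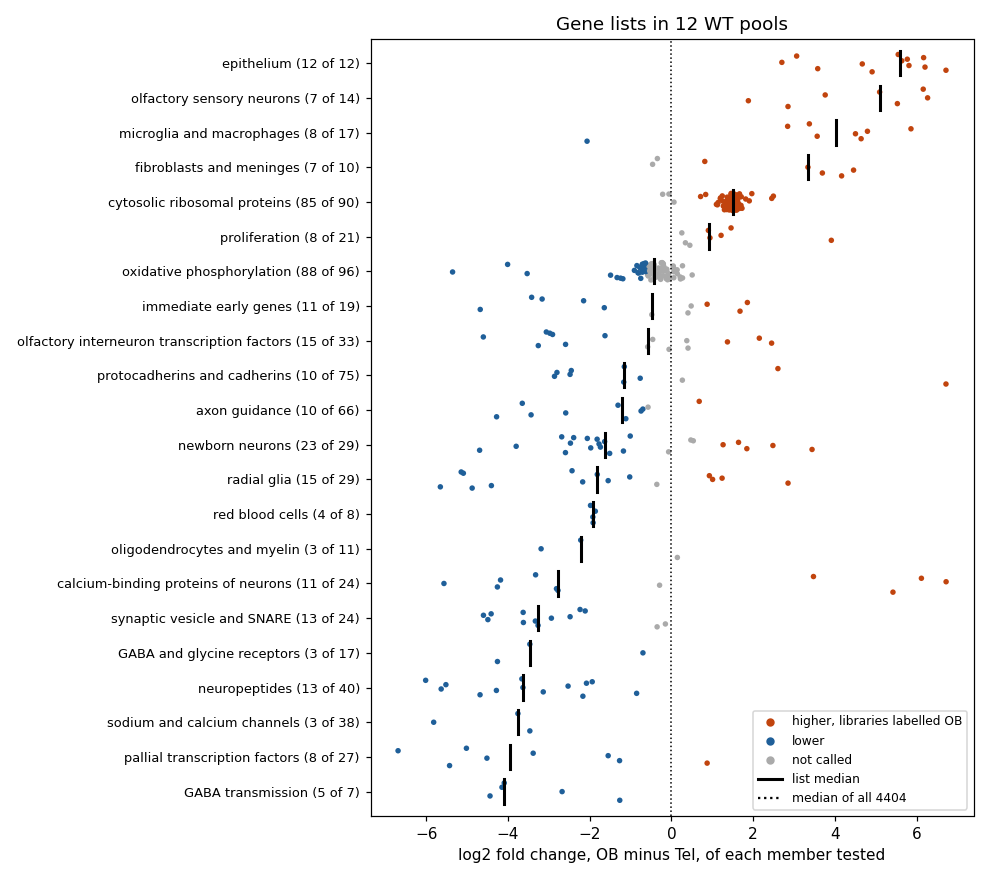
Log2 fold change, OB minus Tel, of each tested member of 22 gene lists in the 12 WT pools (tested and counted numbers in brackets, thick bar at the list median, dotted line at the median of all 4404 genes). Epithelial and olfactory sensory neuron markers lie to the right, at medians of 5.59 and 5.09, and GABA transmission lies to the left at -4.09.

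Immediate early genes went both ways, with 3 of 11 tested higher and 5 lower, beside 29.9% higher and 27.4% lower of all genes tested, so the share that was higher is close to that of all genes. The 8 not tested held 187 counts in OB-labelled against 1362 in Tel libraries. jun, an AP-1 subunit of many cell types, was higher (1.86 ± 0.16), as was the phosphatase dusp1 (1.68 ± 0.18). npas4a, an activity-dependent factor of neurons, was lower (-3.42 ± 0.25), and so were egr4 (-4.68 ± 0.24) and fosab (-1.64 ± 0.16). bdnf was not called, at -0.48 ± 0.16, but was called at -0.62 without male pool B1.

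Few genes of steroid signalling could be read, with 3 tested of 16, cyp19a1b included. hsd11b2, which inactivates cortisol, had 134, 179 and 359.7 CPM in OB-labelled libraries against 4.61, 23.5 and 91.6 CPM in Tel libraries (2.74 ± 0.21) and was higher in 12 of 12 pools. Of the genes for monoamines and acetylcholine, mao, which breaks down monoamines, was lower at -2.15 ± 0.19, and ache, acetylcholinesterase, at -2.99 ± 0.23.

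The difference between the regions was then set apart by sex. Within females 2529 genes were called and within males 2507, of which 2255 were called in both with the same sign. A region by sex term found 0 of 4404 genes (0%) at an adjusted p of 0.05 in edgeR, where 170 had an unadjusted p under 0.05, and DESeq2 found 0. The lowest adjusted p was 0.448, that of tnfaip8l3, whose log2 fold changes were -0.99 in females and 0.79 in males.

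The regions were also compared in cyp19a1b mutants, whose 9 pools share no library with the WT pools. Mutant values and their standard errors come from a joint fit of both genotypes. Of the 4404 genes 2528 (57.4%) were called between the regions in mutants. Both genotypes called 2248 genes with the same sign, which is 89.1% of the WT calls and 88.9% of the mutant calls, and 0 with opposite signs. ompa differed by 5.37 ± 0.29 in mutants against 3.76 ± 0.19 in WT fish, epcam by 6.80 ± 0.43 against 6.20 ± 0.34, eomesa by -6.48 ± 0.32 against -7.45 ± 0.21 and cyp19a1b itself by -5.01 ± 0.32 against -5.66 ± 0.18 (SE, n = 9 mutant and 12 WT pools). For ompa, the larger difference in mutants had an adjusted p of 0.396 in the region by genotype term of edgeR. Of 139 called genes looked at singly, 137 were called with the same sign in mutants, and id3 and efna1a were not.

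A region by genotype term found 0 of 4404 genes (0%) at an adjusted p of 0.05 in edgeR, with 288 at an unadjusted p under 0.05, and DESeq2 found 1, acsl4a. The lowest adjusted p in edgeR was 0.0516, that of acsl4a, a gene for activating long fatty acids, whose difference was more negative in mutants by 1.05 ± 0.21 on the log2 scale. glula was called in mutants, at -1.19 ± 0.25, and not in WT fish, but its region by genotype term had an adjusted p of 0.675 in edgeR.

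The hypothalamus gave a measure of how far regions of the same fish differ. In a fit of all 36 WT libraries with 6012 genes tested, 3422 genes (56.9%) were called between OB-labelled libraries and Tel and 917 (15.3%) between hypothalamus and Tel. The Tel libraries are common to both comparisons.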

How the data were processed

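The authors made a table of UMI counts per gene from BRB-seq of 63 libraries. The deposited counts were whole numbers, with reads on several places dropped. The submitters' processing notes name BWA 0.7.4.4 and danRer11. The study compared genotypes and sexes within a region, not regions. Members and gene lists were chosen with earlier results of these data known.

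Genes passed filterByExpr by region (4404 of 15418), TMM scaling followed, and edgeR 4.0.16 in R 4.3.3 fitted the region with the pool as a block (glmQLFit, glmQLFTest, Benjamini-Hochberg adjustment). Calls needed an adjusted p of 0.05 and 1.5-fold. CPM are counts scaled to TMM-adjusted totals, those of OB and Tel from the fit of the 24 WT libraries. Hypothalamus CPM come from a separate TMM scaling of the same genes over all 63 libraries. Genes named for size were the 12 largest changes each way among called genes with the same sign in 12 of 12 pools and a mean of at least 50 CPM in the higher region, plus cyp19a1b, pcna, th and gnrh3, and other genes were chosen from the lists after their values were seen. Interactions and multidimensional scaling used the same 4404 genes. Alternatives were DESeq2 1.42.0, limma 3.58.1 (on rlog values and voom), other scaling, filters, depths and pools. The pairing comes from the pool codes of the labels and 18 fish per sex giving 6 pools in every region. Deviations of same-coded OB and Tel libraries correlated at 0.176 on average (0.0544 to 0.334, over 0.1 in 9 of 12 pools), and 11 of 12 correlated best with their own code. No 2 libraries of a group agreed within sampling noise (chi-square per degree of freedom at least 1.92 over 60 pairs). The fits were also run on simulated data with balanced changes and no pool effect, which could not test the scaling of these data.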

Additional observations from a re-analysis of the deposited data

Results flagged for a closer look

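Within the 6 libraries of a sex and region, 23 of 148 sets of values had a highest or lowest library past Dixon's limit for its distance from the others. Chance marks about 1 in 20 sets (alpha of 0.05). Genes near 0 are marked easily, because 1 molecule stands alone where the others hold none.

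Among OB-labelled female libraries the highest was pool B1 for eomesa (9.56 CPM, the next at 2.04 CPM) and bhlhe23 (3.19 CPM), pool C2 for neurod6a (4.05 CPM), pool A2 for prdm8b (6.12 CPM) and pool A1 for cygb2 and camk2a (5.63 CPM each) and for cyp19a1b (56.3 CPM, the next at 28.7 CPM). For bhlhe23, neurod6a, prdm8b, cygb2 and camk2a the other 5 libraries held 0. Among OB-labelled male libraries the highest was pool A2 for syt5b (8.33 CPM, the next at 1.11 CPM) and pool A1 for cyp19a1b (48.9 CPM, the next at 24.1 CPM).

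Among Tel female libraries the highest was pool B1 for angptl7 (13.8 CPM), atp1a1a.3 (9.22 CPM) and capn2l (9.22 CPM), pool C2 for capn8 (5.55 CPM) and pool A2 for camk2a (216 CPM, the next at 115 CPM). Pool C1 was the lowest for cyp19a1b (876 CPM, the next at 1447 CPM). Among Tel male libraries pool A1 was the highest for the summed epithelial markers (10586 CPM, the next at 479 CPM), cldnb (1083 CPM, the next at 59.9 CPM), cdh1 (217 CPM, the next at 39.9 CPM) and capn8 (9.24 CPM). Pool B2, where 1 molecule is worth 19.95 CPM, was the highest for cldnh (39.9 CPM). Pool C2 was the highest for the summed olfactory sensory neuron markers (606 CPM, the next at 463 CPM), pool A2 for si:ch211-243g18.2 (1.67 CPM) and pool C1 for kctd4 (435 CPM, the next at 279.6 CPM). Causes were not tested.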

How the results depend on the processing

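Leaving out each pool in turn gave 2471 to 2589 called genes (1293 to 1351 higher, 1177 to 1249 lower) and 0 for the region by sex term. Without the replicate block 2509 genes were called, 0 in each interaction, and no gene with a printed value changed its call. DESeq2 called 2500, limma on rlog values 2294 and voom 2528. With no fold threshold 3221 passed, and 1835 at 2-fold. Library totals alone gave 39.7% of calls higher, against 52.2% under TMM and 58.5% under RLE. The cause was not tested. No filter gave 5782 calls (3198 higher, 2584 lower) of 15001 genes, and at least 10 counts in every library gave 373 (197 higher, 176 lower) of 647, where the number of genes tested changed. No WT call changed sign in these alternatives. Chosen after seeing the data, the 4 pools of letter A, B or C alone gave 2379, 2297 and 2585 calls, with the sign of 3, 9 and 2 of the 2524 calls changed.

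For the region by sex term, no filter called 12 genes, krt5 and krt91 among them, and 3 without male pool A1 (chosen after seeing the data). For the region by genotype term, DESeq2 called 1 (acsl4a), thinning the deeper library of a pool 1 (acsl4a), leaving out 5 of 21 pools with a library under 100000 UMIs 1 (ak1) and no filter 11, glula and apoc1 among them. Of 3281 alternatives for 148 single genes, 3255 kept direction and call, 1 lost its call (chga at -0.49 under the filter of 10), 22 gained one and 3 reversed, which were mbpb (-0.13, library totals alone) and glula (0.0067) and cplx2l (0.016) under the filter of 10, none of them called. Under library totals alone six3b, glula, cplx2l, bdnf and robo2, not called under TMM, were called lower. Depth limits single receptors and genes with medians near 1 molecule.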

Other observations

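Further gene groups were put together after the values had been seen, and they are described with no test of the group. Their members too could pass the filter through 1 region only, and their counts stand beside 29.9% higher and 27.4% lower of all genes tested. Motile cilia move mucus over the nasal epithelium. Of 50 genes of cilia and of the transport inside them, 35 were tested, 33 were higher and 1 lower in OB-labelled libraries, with a median log2 fold change of 2.53. cfap52, a protein of the ciliary axoneme, had 115, 178 and 239 CPM in OB-labelled libraries against 0, 2.81 and 7.66 CPM in Tel libraries (5.82 ± 0.23), and dnah9, a dynein heavy chain of the outer arm, had 246, 434 and 550.1 CPM in OB-labelled libraries against 0, 9.79 and 34.2 CPM in Tel libraries (5.14 ± 0.19). The lower one, spag7, is in the group by its name only. All 13 tested claudin and tight junction genes of 38 were higher, with a median of 5.71, among them cldn7b (5.95 ± 0.25). The 25 not tested held 1045 counts in OB-labelled against 726 in Tel libraries, and 23 of the 38 had the higher share of counts in the OB-labelled libraries. Of 19 keratin genes 12 were tested and 10 were higher, with a median of 4.99 and of 5.70 without male pool A1. krt8 had 753, 1027 and 1536 CPM in OB-labelled libraries against 59.0, 115 and 238 CPM in Tel libraries (3.06 ± 0.14).

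Enzymes of xenobiotic metabolism were higher in 19 of 27 tested and lower in 2, of 141 in the table, with a median of 1.58. cyp2ad2, a cytochrome P450, had 375, 502 and 650.1 CPM in OB-labelled libraries against 1.34, 5.88 and 20.0 CPM in Tel libraries (6.47 ± 0.18). sult2st1, a sulfotransferase, had 988, 1361 and 3014 CPM in OB-labelled libraries against 10.2, 32.1 and 109 CPM in Tel libraries (5.49 ± 0.21), and gstp1, a glutathione transferase, had 2746, 4001 and 4949.7 CPM in OB-labelled libraries against 119.7, 361 and 558 CPM in Tel libraries (3.53 ± 0.15). All 11 tested antigen presentation genes of 32 were higher, and 26 of the 32 had the higher share of counts in OB-labelled libraries, with b2m, the light chain of MHC class I, at 3.95 ± 0.16. The group shares cd74a and cd74b with the macrophage markers. Transcription factors of the placodes, which give rise to the nose, were higher in all 6 tested of 13. The 7 not tested held 780 counts in OB-labelled against 71 in Tel libraries. Among those tested, six1b passed the filter through the OB-labelled libraries, which fixed its direction. six1b had 155, 218 and 327 CPM in OB-labelled libraries against 0, 0.863 and 13.8 CPM in Tel libraries (6.36 ± 0.24), dlx3b differed by 4.94 ± 0.28 (5.67 without male pool A1) and eya1 by 4.57 ± 0.22. In the other direction, all 12 tested membrane and growth proteins of neurons, of 18, were lower, gpm6ab among them (-5.08 ± 0.15). The 6 not tested held 263 counts in OB-labelled against 178 in Tel libraries, and 5 of the 18 had the higher share of counts in the OB-labelled libraries. The 18 summed to 624, 699 and 863 CPM in OB-labelled libraries against 10145, 10892 and 12612 CPM in Tel libraries. cfl1, cofilin of the actin skeleton, had 6151, 9506 and 16686 CPM in OB-labelled libraries against 16661, 25264 and 38956 CPM in Tel libraries (-1.31 ± 0.10) and was lower in 12 of 12 pools.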
